A study of Homo sapiens with 9 samples.

Results

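Gene expression was compared between Huh-7 cells (a human hepatoma line) carrying a lentiviral short hairpin RNA against NDRG3 (shNDRG3) and Huh-7 cells carrying a hairpin against GFP (shGFP, the control), both after 24 h in 1% oxygen. The samples were chosen by these labels and make up 2 of the 9 arrays of the series, and all 18153 genes of the gene-level values were compared. NDRG3 is a cytoplasmic member of the N-myc downstream-regulated gene family. In oxygen it is known to be hydroxylated by the prolyl hydroxylase PHD2 and degraded, and in prolonged hypoxia it accumulates, binds lactate and takes part in RAF and ERK signalling. HIF-1, the other arm of the response, switches on genes for glycolysis, pH control and blood vessel growth.

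The series holds 9 Illumina expression arrays, each the only array of its group. The 3 arrays of the second platform are shGFP in normoxia (the 24 h control), shGFP after 24 h of hypoxia and shNDRG3 after 24 h of hypoxia. The first platform holds the remaining 6, namely shGFP in normoxia, shGFP and shNDRG3 after 6 h and 12 h in 1% oxygen, and shHIF1A (a hairpin against HIF1A) after 12 h. Each line stably carries its hairpin, and the sources used here do not say whether a line is 1 clone or a pool, or how many hairpins were tried. No shNDRG3 array in normoxia was analysed here, so a difference present before hypoxia and one that arises in hypoxia cannot be told apart. Nor can time and platform, since all 24 h arrays lie on the second platform.

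The values are probe brightness (intensity) summarised per gene. Differences are shNDRG3 minus shGFP on the log2(intensity + 32) scale, and folds are ratios on the intensity + 32 scale. With 1 array a side no difference has a replicate check and none was tested, so a gene counts as lower or higher where it differs at least 2-fold and at least 1 of the 2 arrays reaches 210.2, the 40th percentile of the platform. Genes under 1.3-fold apart are called level. In bulk RNA, fewer cells of a type and less RNA per cell cannot be told apart.

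The targeted gene was low on the array labelled as its knockdown. NDRG3 intensity was 1427 in shGFP normoxia, 1712 in shGFP hypoxia and 233 in shNDRG3 hypoxia, a difference of -2.72 at 24 h, beside -2.13 at 6 h and -2.59 at 12 h on the first platform. The defining hepatocyte genes were close to background on all 3 arrays of the second platform. ALB (serum albumin) stood at 168, 164 and 160.0 in shGFP normoxia, shGFP hypoxia and shNDRG3 hypoxia, and AFP (alpha-fetoprotein) at 164, 187 and 162. Of 25 hepatocyte markers in the table, 6 reached the filter on at least 1 of the 2 hypoxia arrays, so the labelled cell type has little support in its own markers here. The shNDRG3 array stood further from its control than the shNDRG3 arrays of the first platform did. Over the 11582 genes past the filter the differences at 24 h had a standard deviation of 0.461. On the first platform, with its own filter of 127.3, it was 0.184 over 11336 genes at 6 h and 0.208 over 11322 genes at 12 h. Several keratins, basal epithelial markers and GAGE genes that were bright on both shGFP arrays were low on the 24 h shNDRG3 array, while on the first platform they were under 2-fold apart. GAGE4, for one, had a difference of -3.69 at 24 h, against -0.01 and 0.02 at 6 h and 12 h. Whether the 24 h shNDRG3 RNA came from the same cells as the others was not tested, and every 24 h difference below depends on it.

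At 24 h, 298 genes were at least 2-fold lower in shNDRG3, which is 1.64% of all genes and 2.57% of those past the filter, and 78 were at least 2-fold higher, 0.43% and 0.673%. A further step up the scale left 64 genes at least 4-fold lower (0.353%) and 5 at least 4-fold higher (0.0275%). The genes of largest difference code for small calcium-binding and LIM proteins, keratins, secreted growth factor binding proteins and membrane glycoproteins, and they include CA9 and SLC16A3, which handle acid and lactate in hypoxic cells, and the chemokine CXCL8. Most glycolytic enzymes and most genes known to be induced by hypoxia were under 2-fold apart. The median over all genes was 0.01, and the middle 95% of genes past the filter lay between -1.01 and 0.74.

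**Figure D1:**
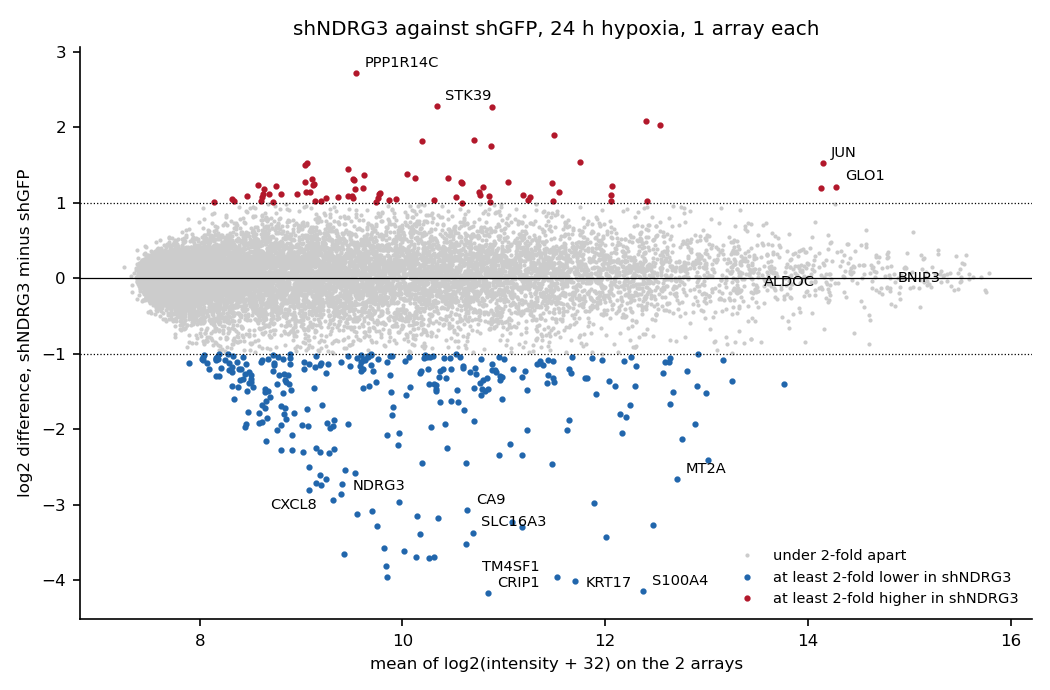
Difference at 24 h (vertical, log2, shNDRG3 minus shGFP, 1 array each) against the mean log2(intensity + 32) of the 2 arrays (horizontal), 1 point a gene. The 298 blue genes are at least 2-fold lower and the 78 red genes at least 2-fold higher in shNDRG3, dotted lines mark 2-fold, and the lowest point, CRIP1, lies at -4.17 while the highest, PPP1R14C, lies at 2.72.

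Promoter windows from RefSeq (GRCh38.p14), each from 250 bases before to 50 bases after an annotated start and printed 5′ to 3′ on the gene's strand, are shown first for genes on which the hypoxia results turn. CA9 and SLC16A3 were lower in shNDRG3 at 24 h, while ALDOC and ANKRD37, which were chosen after their values were seen, were far higher in shGFP hypoxia than in normoxia and level between the lines. Capitals mark ACGTG and GCGTG, the cores of hypoxia response elements, on either strand, and TGANTCA, the AP-1 site.

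CA9, chr9:35673678-35673977, plus strand: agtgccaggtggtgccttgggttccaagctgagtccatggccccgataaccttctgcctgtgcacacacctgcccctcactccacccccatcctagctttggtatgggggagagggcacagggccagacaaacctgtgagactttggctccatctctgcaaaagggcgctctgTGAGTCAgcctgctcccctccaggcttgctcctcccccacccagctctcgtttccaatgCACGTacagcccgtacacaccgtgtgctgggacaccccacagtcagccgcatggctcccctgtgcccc
SLC16A3, chr17:82228792-82229091, plus strand: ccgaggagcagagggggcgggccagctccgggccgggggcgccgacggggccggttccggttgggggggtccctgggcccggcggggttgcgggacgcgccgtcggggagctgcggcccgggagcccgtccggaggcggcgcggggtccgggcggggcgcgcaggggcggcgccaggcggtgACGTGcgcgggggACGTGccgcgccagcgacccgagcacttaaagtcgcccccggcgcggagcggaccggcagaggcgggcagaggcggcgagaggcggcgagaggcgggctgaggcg
ALDOC, chr17:28576846-28577145, minus strand: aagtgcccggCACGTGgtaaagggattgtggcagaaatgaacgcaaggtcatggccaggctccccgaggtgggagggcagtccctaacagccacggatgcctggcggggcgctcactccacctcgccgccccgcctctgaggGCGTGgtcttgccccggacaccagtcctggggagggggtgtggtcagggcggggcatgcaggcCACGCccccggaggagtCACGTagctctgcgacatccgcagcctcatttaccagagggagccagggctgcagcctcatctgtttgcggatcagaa
ANKRD37, chr4:185396591-185396890, plus strand: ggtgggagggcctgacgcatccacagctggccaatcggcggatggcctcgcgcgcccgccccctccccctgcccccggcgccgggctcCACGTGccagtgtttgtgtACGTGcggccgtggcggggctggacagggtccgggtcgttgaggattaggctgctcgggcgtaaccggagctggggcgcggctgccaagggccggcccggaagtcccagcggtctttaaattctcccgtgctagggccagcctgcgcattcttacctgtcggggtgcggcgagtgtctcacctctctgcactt

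All 4 windows hold ACGTG, on the pair that was lower and on the pair that was not. For SLC16A3, RefSeq gives 5 windows, and the one shown is the only one with ACGTG. CA9 intensity was 472 in shGFP normoxia, 4599.8 in shGFP hypoxia and 518 in shNDRG3 hypoxia, and SLC16A3 intensity was 2384, 5284 and 483. Against these, ALDOC read 1543, 12159 and 10710.4 on the same arrays and ANKRD37 read 529, 9045 and 8280.0. Both lines thus held ALDOC and ANKRD37 far above the normoxia array, whereas CA9 in shNDRG3 hypoxia was near its normoxia level and SLC16A3 below it.

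The second set of windows belongs to CXCL8, CRIP1 and S100A4, a chemokine and the genes with the lowest differences of all. Here capitals mark the same motifs and also TATAAA, the TATA box, and GGNNTTTCC, a shortened NF-kB site that was added after the CXCL8 sequence had been read.

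CXCL8, chr4:73740319-73740618, plus strand: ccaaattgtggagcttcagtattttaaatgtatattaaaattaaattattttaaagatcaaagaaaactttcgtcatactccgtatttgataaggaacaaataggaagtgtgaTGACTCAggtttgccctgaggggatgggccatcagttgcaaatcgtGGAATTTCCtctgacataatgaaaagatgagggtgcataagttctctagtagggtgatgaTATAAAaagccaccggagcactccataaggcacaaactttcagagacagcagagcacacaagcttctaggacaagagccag
CRIP1, chr14:105486636-105486935, plus strand: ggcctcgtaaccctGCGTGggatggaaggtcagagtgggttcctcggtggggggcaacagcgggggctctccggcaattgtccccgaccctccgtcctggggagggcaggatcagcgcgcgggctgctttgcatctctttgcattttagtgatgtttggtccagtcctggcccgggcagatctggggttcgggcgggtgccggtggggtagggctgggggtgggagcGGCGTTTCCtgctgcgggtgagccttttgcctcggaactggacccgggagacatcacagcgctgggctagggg
S100A4, chr1:153545757-153546056, minus strand: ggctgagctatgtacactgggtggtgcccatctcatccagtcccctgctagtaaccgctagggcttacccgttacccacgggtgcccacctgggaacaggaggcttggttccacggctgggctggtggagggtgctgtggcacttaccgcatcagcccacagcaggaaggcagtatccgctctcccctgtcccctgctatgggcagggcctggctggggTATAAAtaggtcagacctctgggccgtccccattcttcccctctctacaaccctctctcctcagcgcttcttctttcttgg

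CXCL8 holds TGANTCA, GGNNTTTCC and TATAAA, S100A4 holds TATAAA, and CRIP1 holds GGNNTTTCC and GCGTG. Over all genes, windows were available for 13631 genes (19456 windows), and among the 298 lower genes for 210 (289 windows). ACGTG on either strand was in 23.0% of all windows, in 22.5% of the windows of lower genes and in 25.3% of the 87 windows of higher genes. GCGTG was in 43.2%, 39.8% and 37.9% in that order. TGANTCA was in 6.11% of all windows, in 11.1% of those of lower genes and in 8.05% of those of higher genes, and TATAAA was in 9.3%, 13.5% and 8.05%. The longer NF-kB pattern (GGG, any 2 bases, then TTTCC) was in 2.01%, 5.19% and 3.45%, and GGNNTTTCC, which every such match also holds, in 6.47%, 10.7% and 5.75%. Among the 58 windows of genes at least 4-fold lower, TATAAA was in 29.3%. A match of letters is a description of a window and not a binding site, windows of 1 gene can overlap, and these shares were not tested.

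The lowest genes of all were abundant in the control. CRIP1, a small LIM-domain protein, had an intensity of 8047 in shGFP normoxia, 7785 in shGFP hypoxia and 402 in shNDRG3 hypoxia, a difference of -4.17. S100A4, a calcium-binding protein associated with cell motility, read 24971, 22319 and 1230.3 on the same arrays, 17.7-fold lower in shNDRG3 than in shGFP hypoxia. KRT17, an intermediate filament protein of basal epithelium, read 7762, 13354 and 797. In each case both shGFP arrays were high and the shNDRG3 array alone was low. At 6 h the differences of CRIP1, S100A4 and KRT17 were -0.05, 0.04 and -0.21, and at 12 h they were -0.32, -0.16 and 0.06, so none of the trio was near 2-fold apart on the first platform.

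TM4SF1, a membrane protein of the transmembrane 4 family, read 24102 in shGFP normoxia, 11561 in shGFP hypoxia and 712 in shNDRG3 hypoxia. OLR1, a receptor for oxidised lipoprotein, read 7091, 3589 and 202, and KYNU, the kynureninase of tryptophan breakdown, read 6684, 3396 and 211. These genes were already lower in shGFP hypoxia than in normoxia, and the shNDRG3 values of OLR1 and KYNU lay near the filter value. FOLR1, the folate receptor alpha, behaved otherwise, with 6485 in normoxia, 13472 in shGFP hypoxia and 1226 in shNDRG3 hypoxia. MUC1, a membrane mucin, read 1156, 3694 and 324 in the same order, and MSLN, the surface glycoprotein mesothelin, read 2960.1, 2756 and 326. BASP1, a membrane-attached signalling protein, read 15502, 17546 and 1796. Whatever hypoxia did in the control, shNDRG3 was the lowest of the 3 arrays for each of these 7 genes.

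Across the 25 lowest genes with a current RefSeq symbol the differences ran from -4.17 (CRIP1) to -2.94 (CXCL8). With GAGE4, GAGE5 and GAGE12I, which have no such symbol, counted in, 25 genes were at least 8-fold lower, and their median intensity was 4327 in shGFP normoxia, 4407 in shGFP hypoxia and 348 in shNDRG3 hypoxia. Their median differences at 6 h and 12 h were -0.02 and -0.05. Of all 298 lower genes, 145 were also at least 2-fold lower in shNDRG3 than in shGFP normoxia. Another 55 stood apart on the shGFP hypoxia array alone, at least 2-fold above normoxia there and within 1.3-fold of normoxia in shNDRG3, and 14 of these 55 were within 1.3-fold of normoxia in shGFP at 12 h on the first platform. A value that stands out on the single shGFP hypoxia array enters both its hypoxia and its shNDRG3 difference.

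**Figure D2:**
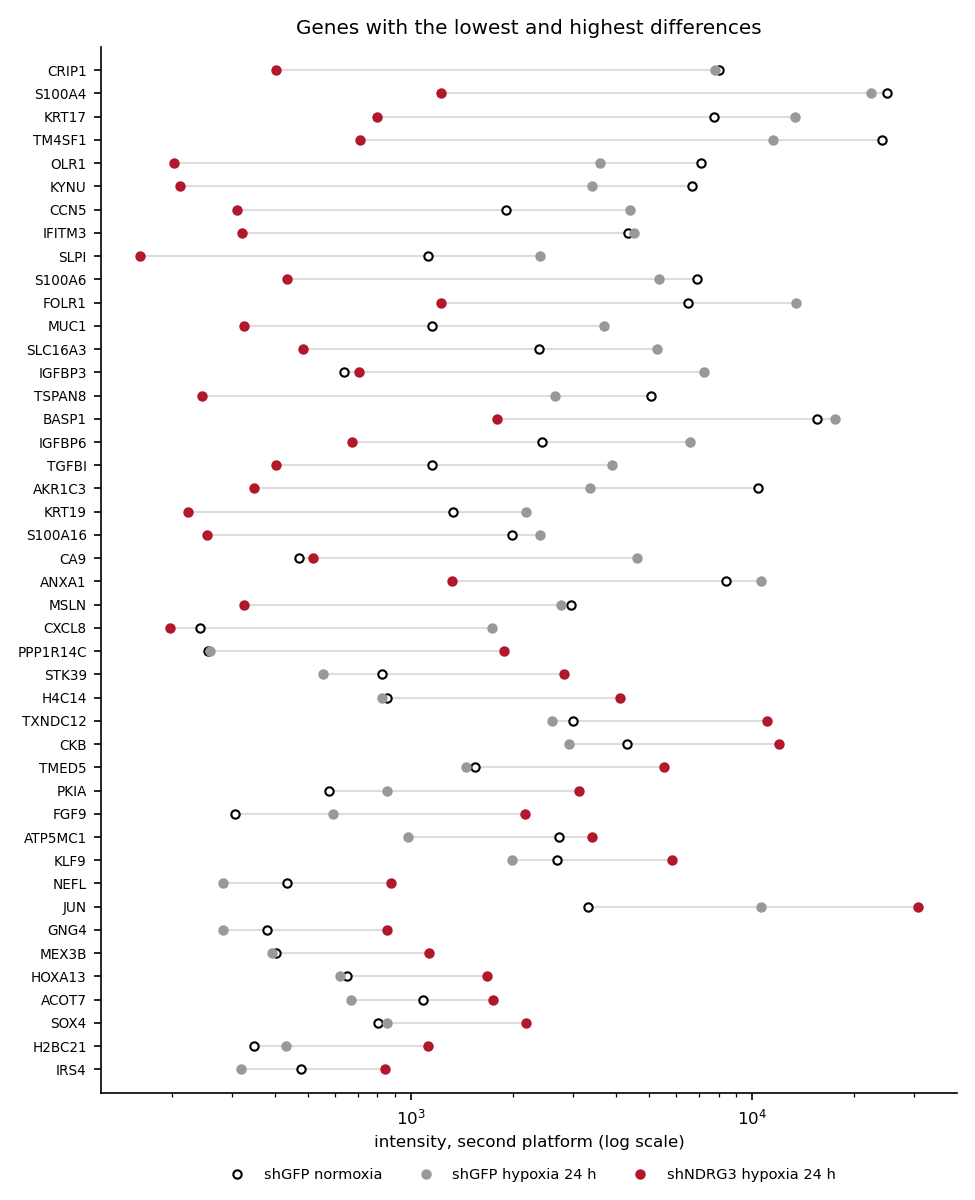
Intensity on the second platform (horizontal, log scale) of genes from the 25 with the lowest and the 20 with the highest difference among genes with a current RefSeq symbol, 1 row a gene and 1 point an array: open for shGFP normoxia, grey for shGFP hypoxia 24 h, red for shNDRG3 hypoxia 24 h. CRIP1 stands at 8047, 7785 and 402 on these arrays, and PPP1R14C at 256, 259 and 1884.

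Calcium-binding, keratin and cytoskeletal genes included several of the lowest genes. Of 19 S100 genes in the table, 5 were at least 2-fold lower (26.3%) and none higher, with a list median of -0.14 beside 0.01 over all genes. S100A6, a calcium-binding partner of annexins, read 6918 in shGFP normoxia, 5342 in shGFP hypoxia and 435 in shNDRG3 hypoxia. S100A16 read 1987, 2388 and 252, S100P read 4632, 3652 and 646, and S100A11 read 3019, 2472 and 783. Other members stayed level, among them S100A13 (849 in shGFP and 756 in shNDRG3) and S100A2 (361 and 325). S100A10, the annexin A2 partner, was bright on all 3 arrays and under 2-fold apart, at 19626, 29357 and 20888.

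Of 33 keratin and desmosomal genes, 7 were lower (21.2%) and none higher, with a median of -0.07. Besides KRT17 these were KRT19, KRT80, KRT7, KRT8, KRT16 and SFN (stratifin, a 14-3-3 protein of epithelia). KRT19, a keratin of simple epithelia, read 1328, 2186 and 223 in shGFP normoxia, shGFP hypoxia and shNDRG3 hypoxia, and KRT7, a keratin of glands and ducts, read 1516, 1396 and 173. KRT8, which pairs with KRT18 in hepatocytes, read 2824, 2808 and 819. Its partner did not follow, since KRT18 read 728 in shGFP hypoxia and 925 in shNDRG3 hypoxia, and the junction genes DSG2 (desmoglein 2; 2011 and 2207) and JUP (plakoglobin; 1001 and 1178) were level as well. Of 12 markers of basal or squamous epithelium, 4 were at least 2-fold lower (KRT17, SERPINB5, LAMB3 and SFN, of which KRT17 and SFN are counted above too), and the list median was -0.06. The summed intensity of the list was 15615 in shGFP normoxia, 17832 in shGFP hypoxia and 3545 in shNDRG3 hypoxia, with 6, 6 and 4 members over the filter, and KRT17 held most of that difference. The part of such cells in the keratin result was not tested.

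Of 46 genes of the actin cytoskeleton, LIM proteins, annexins and caveolae, 10 were lower (21.7%) and none higher, with a median of -0.13. ANXA1, an annexin that dampens inflammation, read 8409 in shGFP normoxia, 10644 in shGFP hypoxia and 1322 in shNDRG3 hypoxia. TPM2, a tropomyosin that winds along actin filaments, read 2987, 5195 and 1001, and CSRP1, a second LIM protein, read 1457, 1495 and 209. The galectins LGALS1 (-2.01) and LGALS3 (-1.94), the caveolar genes CAVIN1 (-1.46) and CAV1 (-1.11), and the annexins ANXA2 (-1.25) and ANXA8 (-1.01) had smaller log2 differences. Several abundant members were level, with VIM (vimentin) at 17239 in shGFP and 15161 in shNDRG3, MYL6 (a myosin light chain) at 30119 and 33572, and ANXA5 at 9402 and 10049. Fibroblast and mesenchymal markers, of which none of 12 was 2-fold apart, summed to 18184, 19928 and 18306 on the 3 arrays.

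Surface tetraspanins and junction genes were mixed. Of 34 members, TM4SF1, TSPAN8 and CD44 (the hyaluronan receptor) were lower and TSPAN7 was higher, with a median of 0.08. TSPAN8 read 5064, 2653 and 244 in shGFP normoxia, shGFP hypoxia and shNDRG3 hypoxia, while TSPAN7 read 663, 561 and 1255. CD81, a tetraspanin that hepatitis C virus uses to enter cells, was level at 23659.6 in shGFP and 23829 in shNDRG3.

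Secreted inflammatory and growth-regulating genes formed the next group. Of 31 chemokine, interleukin and prostaglandin genes, 9 were lower (29.0%) and none higher. The list median was -0.14, and 18 members reached the filter on the shGFP array against 14 on the shNDRG3 array. CXCL8, which attracts neutrophils and promotes vessel growth, read 241 in shGFP normoxia, 1728 in shGFP hypoxia and 197 in shNDRG3 hypoxia. IL1A, an alarm cytokine, read 222, 1209 and 228, and CCL20, a chemokine for lymphocytes and dendritic cells, read 213, 600.0 and 254. All 3 were high on the shGFP hypoxia array alone, and in shNDRG3 their values lay near those of normoxia.

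PTGS2, the inducible cyclooxygenase, read 829, 1344 and 497 in shGFP normoxia, shGFP hypoxia and shNDRG3 hypoxia, and PTGES, the prostaglandin E synthase downstream of it, read 3076, 1199.5 and 303. IL18, an interleukin-1 family cytokine, read 6776, 10963 and 3839. The remaining members are targets and brakes of NF-kB: NFKBIA (-1.38), BIRC3 (-1.15) and TNFAIP3 (-1.08), as log2 differences. The NF-kB subunits NFKB2 (293 in shGFP and 272 in shNDRG3) and RELB (238 and 214) were level, both dim and not far from the filter value. Other NF-kB subunits are not reported here. On the first platform no member of this list was 2-fold lower at 6 h or 12 h, and CXCL8 differed by -0.45 and 0.18. None of 6 endothelial markers was 2-fold apart, and among 6 leukocyte markers 1 was lower, CD68 (640.1, 1439 and 572), a lysosomal protein of macrophages that many tumour lines also express.

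Of 24 angiogenic and growth factors, 12 reached the filter. Of the 24, 1 was 2-fold lower (4.17%, against 1.64% of all genes) and none was higher. The lower gene was EDN2 (endothelin 2), at 177, 596 and 274 in shGFP normoxia, shGFP hypoxia and shNDRG3 hypoxia. At 12 h EDN2 had differed the other way, by 1.85. VEGFA, the main hypoxia-induced vessel growth factor, read 370.3 in shGFP and 409 in shNDRG3, and ADM (adrenomedullin) read 11247 and 9481.

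The insulin-like growth factor (IGF) binding proteins and the matricellular CCN proteins held 4 lower genes of 17 (23.5%) and no higher one, with a median of 0.01. IGFBP3, which sequesters IGF in the extracellular space, read 639.6 in shGFP normoxia, 7244 in shGFP hypoxia and 706 in shNDRG3 hypoxia. IGFBP6 read 2423, 6599.9 and 675, and CCN5 read 1902, 4407 and 309.6. The fourth was IRS2, an adaptor of the insulin receptor, at 1106, 1744 and 827. IGFBP3 in shNDRG3 was close to its normoxia level, whereas IGFBP6 and CCN5 lay below it. IGF2R (4704 and 4733) and CCN1 (1132 and 1396) did not follow.

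Of 30 genes of the TGF-beta and BMP pathway, 3 were lower (10.0%) and 1 higher. TGFBI, a matrix protein named for its induction by TGF-beta, read 1154, 3890.2 and 403 in shGFP normoxia, shGFP hypoxia and shNDRG3 hypoxia. The ligand BMP2 read 1073, 1785 and 271, and its relative BMP7, the higher member, read 747, 328 and 819. GDF15, a stress-induced ligand, read 419.9, 8405 and 2391, so that shNDRG3 was below shGFP hypoxia and still above normoxia. The receptor-activated SMAD3 (1036 and 902) and the inhibitor SMAD7 (605 and 557) were level.

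Matrix and protease genes had lower members and no higher one. Of 51 integrin, laminin, collagen and matrix genes, 5 were lower (9.80%), with a median of -0.06. COL7A1, the collagen of anchoring fibrils, read 1611, 6661 and 1187, COL5A1 read 1105, 2647 and 671, and ITGA5, the fibronectin receptor subunit, read 804, 3170.2 and 833. For all of these the shGFP hypoxia array was the highest of the 3. MFAP5, a microfibril protein, was one of few genes 2-fold lower at 12 h as well (-1.07), while the 6 h difference was -0.78 and the 24 h difference -2.72. Of 33 genes of the plasminogen system and of proteases and their inhibitors, 7 were lower (21.2%), with a median of -0.10. Of the 7, 6 belong to families of protease inhibitors, and the other is F3, tissue factor, the starter of coagulation (492, 492 and 163). SLPI, an inhibitor of leukocyte elastase, read 1123, 2399 and 161, and PI3, a related inhibitor, read 272, 662 and 144. The serpins SERPINB5, SERPINB2 and SERPINB8 had differences of -2.30, -2.16 and -1.47. TIMP1, an abundant metalloprotease inhibitor, was level at 17172 and 15287.

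Most genes that mark the hypoxic state were under 2-fold apart between the lines. Of 36 hypoxia-inducible genes, 4 were at least 2-fold lower (11.1%) and none higher, with a median of -0.11. Among them, besides CA9, were PPP1R3C (a glycogen-targeting subunit of protein phosphatase 1) and WSB1 (a ubiquitin ligase adaptor). PPP1R3C read 674, 1204 and 282 in shGFP normoxia, shGFP hypoxia and shNDRG3 hypoxia, and WSB1 read 531, 2069 and 759.5. Against these, BNIP3, a mitophagy receptor, read 5908, 29894 and 27386, and the transcription factor BHLHE40 read 2113, 13298 and 15168. The summed intensity of the list was 51300 in normoxia, 160120 in shGFP hypoxia and 147481 in shNDRG3 hypoxia. Both hypoxia arrays thus stood far above the normoxia array in this sum.

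Of 30 genes of glucose uptake, glycolysis and lactate handling, 1 was lower (3.33%, against 1.64% of all genes) and none higher, with a median of -0.03. That gene was SLC16A3, the monocarboxylate transporter MCT4, which exports lactate. ENO1 (enolase) read 49378 in shGFP and 48849.6 in shNDRG3, LDHA (lactate dehydrogenase A) 42173 and 44422, TPI1 38166 and 39757, and GAPDH 29298 and 26941. The list summed to 182896, 316268 and 297022 on the 3 arrays. The glycolytic enzymes named from it were picked as bright members under 1.3-fold apart, so that they were level follows from the rule. Outside the list, the enolase ENO3 was lower, at 1202, 1570 and 530 in shGFP normoxia, shGFP hypoxia and shNDRG3 hypoxia. SLC16A6, of the same transporter family as SLC16A3, was lower too (-2.31), both being picked after their values were seen. Of 13 carbonic anhydrases and pH exchangers, CA9 and SLC16A3 were lower and CA2, a cytosolic carbonic anhydrase, was higher, with 17229, 2870.2 and 6213 in shGFP normoxia, shGFP hypoxia and shNDRG3 hypoxia. The CA2 value in shNDRG3 lay between both shGFP values.

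The hypoxia regulators and the NDRG family were examined by name. NDRG1, a HIF target, read 919, 4447 and 2576 in shGFP normoxia, shGFP hypoxia and shNDRG3 hypoxia, a difference of -0.78. NDRG2 read 553, 597 and 469, and NDRG4 read 371, 622 and 1028, so that among the family NDRG3 alone was 2-fold apart. HIF1A, the oxygen-controlled subunit of HIF-1, read 879, 572 and 331, and ARNT, its partner, read 249.8, 277 and 299.6. EPAS1, the HIF-2 alpha subunit, read 1125, 1985 and 831. EPAS1 was 2.34-fold lower in shNDRG3, the largest difference among HIF1A, EPAS1 and ARNT.

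The sets that the first platform defines share no array with the 24 h comparison. Of 284 genes at least 2-fold higher after 12 h of hypoxia in shGFP (1.56% of all genes), 60 were lower in shNDRG3 at 24 h (21.1%, against 1.64% of all genes) and 2 were higher, with a median of -0.35. Of 175 genes at least 2-fold lower after 12 h of hypoxia in shGFP (0.964%), 5 were lower (2.86%) and 4 were higher (2.29%), with a median of 0.04. Narrowing to the 50 genes at least 4-fold induced at 12 h gave 16 lower (32%), 1 higher (JUN) and a median of -0.51. The genes of the set were not sorted by kind, and those named here are examples. IGFBP3, CCN5, CA9, the metallothioneins, IL1A, ITGA5, GDF15 and TMEM158 stood at the low end, while the glycolytic ENO2 (4192 in shGFP and 4818 in shNDRG3), HK2 (3235 and 2841) and PFKFB4 (6918 and 8032) and the collagen hydroxylase P4HA1 (2444 and 2915) were not among the 16. In between lay SLC2A3 and LOX, the glucose transporter GLUT3 and lysyl oxidase. SLC2A3 read 3925, 21441 and 11919 in shGFP normoxia, shGFP hypoxia and shNDRG3 hypoxia, and LOX read 398, 8935 and 5927. Genes of this set not named by list or rule were picked after their values were seen.

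**Figure D3:**
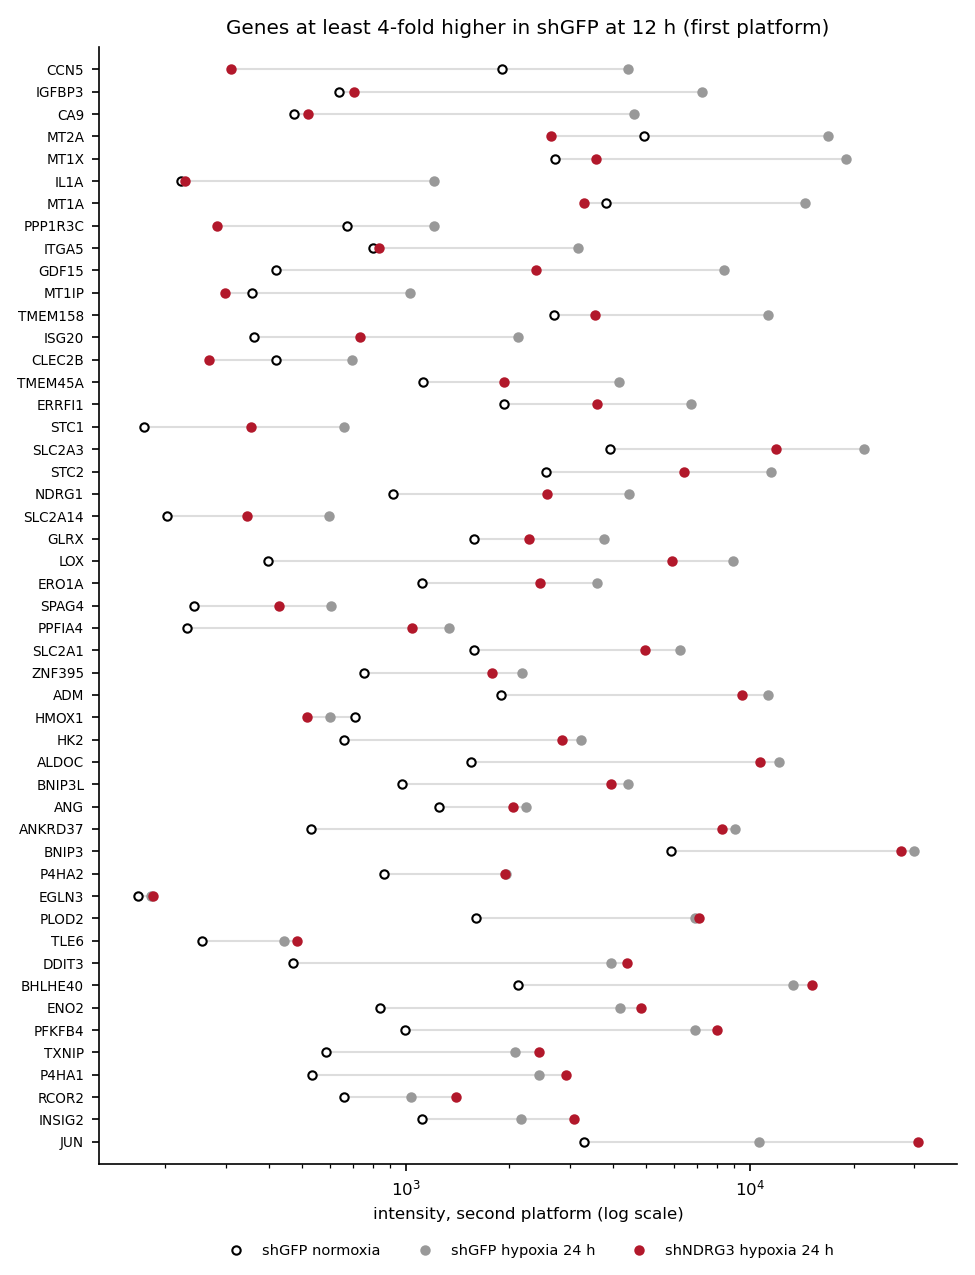
Intensity on the second platform (horizontal, log scale) of genes from the 50 at least 4-fold higher in shGFP after 12 h of hypoxia on the first platform, ordered by the 24 h difference, with open points for shGFP normoxia, grey for shGFP hypoxia 24 h and red for shNDRG3 hypoxia 24 h. For CA9 the red point (518) lies near the open one (472), while for ANKRD37 it (8280.0) lies near the grey one (9045).

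The genes that HIF1A knockdown touched at 12 h were also compared. Of 69 genes at least 2-fold lower in shHIF1A than in shGFP at 12 h (0.38% of all genes), 17 were lower in shNDRG3 at 24 h (24.6%) and none was higher, with a median of -0.49. Of 61 genes higher in shHIF1A (0.336%), 3 were lower (4.92%) and 7 higher (11.5%), with a median of 0.37. CA9 was in the first set, with -1.64 in shHIF1A, and PPP1R3C too, with -1.79. SLC16A3 was not, with -0.25. The share of lower genes also varied with level. By shGFP normoxia level in 5 bins of equal size, the share lower in shNDRG3 was 0.0% in the dimmest bin, then 0.165%, 0.909% and 3.83%, and 3.3% in the brightest. The 21.1%, 32% and 24.6% given above are larger shares, but the bins do not match these sets for level on the shGFP hypoxia array. The 50 genes induced 4-fold, for one, had a median of 823 in shGFP normoxia and 4059 in shGFP hypoxia. The part of level in these shares was not tested.

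The earlier shNDRG3 arrays did not show most of the 24 h differences. At 6 h, 8 genes were at least 2-fold lower (0.0441% of all genes) and 5 higher (0.0275%), and at 12 h 12 were lower (0.0661%) and 7 higher (0.0386%). Of the 298 genes lower at 24 h, 2 were lower at 6 h and 4 at 12 h. These 4 were NDRG3, MFAP5, MAL2 (a vesicle transport protein) and TCIM, and NDRG3 and TCIM were the pair at 6 h. Genes with only a lean in the same direction were more frequent: 146 of the 298 were below 0 at both times, against 5154 of all 18153 genes. Their median of -1.37 at 24 h compared with -0.05 at 6 h and -0.11 at 12 h. Of the 78 higher genes, 48 were above 0 at both times, against 5256 of all genes, with medians of 0.08, 0.22 and 1.15. At both earlier times the median of the 78 genes was further from 0 than that of the 298.

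**Figure D4:**
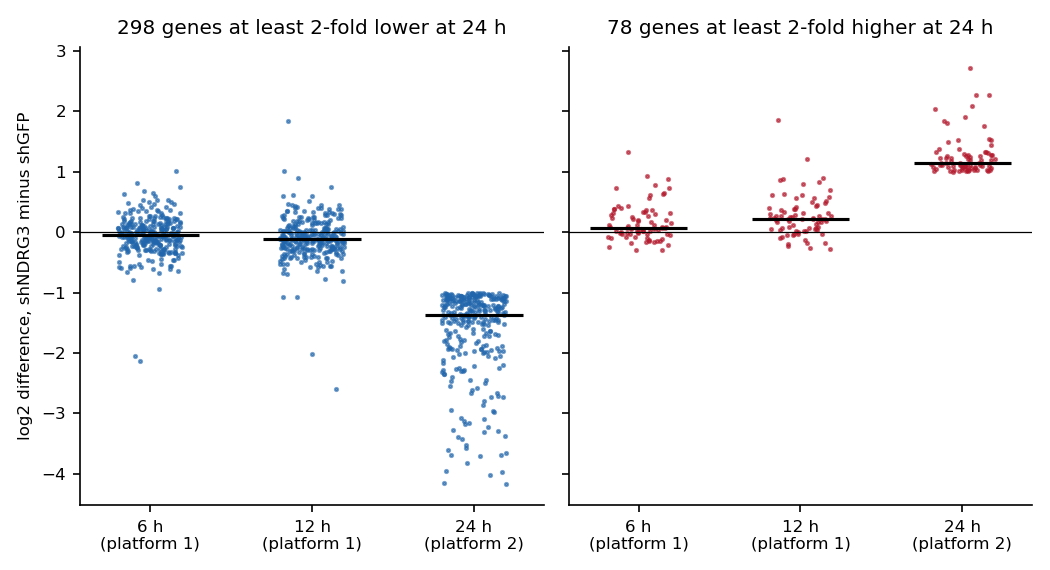
Difference (vertical, log2, shNDRG3 minus shGFP) of the 298 genes at least 2-fold lower at 24 h (left) and of the 78 at least 2-fold higher (right), at 6 h, 12 h and 24 h (horizontal), 1 point a gene, with bars at the medians. The 24 h values chose the genes. The medians of the left panel are -0.05, -0.11 and -1.37 and those of the right panel 0.08, 0.22 and 1.15.

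Some genes called at 6 h or 12 h were no longer apart at 24 h. CCND1, which codes for cyclin D1, had differences of -1.21 and -1.30 and then 0.01, with 435 in shGFP and 438 in shNDRG3 at 24 h. DKK1, a secreted Wnt inhibitor, had -1.17 and -1.13 and then -0.08, and TFRC, the transferrin receptor, had 1.03 and 1.12 and then 0.23. Whether time or platform sets these apart cannot be told.

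The RNAs of the pathway in which NDRG3 is known to act were also examined. None of 31 RAS, RAF, MEK, ERK and 14-3-3 genes was 2-fold apart, with a median of 0.14. Over all genes 1.64% were lower and 0.43% higher, and at such shares a list of this size holds few or none. MAPK3 (ERK1) read 4142 in shGFP and 5079.7 in shNDRG3, and PEBP1, a kinase inhibitor protein, read 3274 and 3734. Among 23 feedback and output genes of ERK, 3 were lower (13%) and none higher, with a median of -0.14. DUSP5, a nuclear ERK phosphatase, read 1128, 4427 and 845 in shGFP normoxia, shGFP hypoxia and shNDRG3 hypoxia, and FOSL1, an AP-1 subunit stabilised by ERK, read 205, 727 and 171. PHLDA1 read 782, 1049 and 488. SPRY2 (1635 and 2045) and MYC (1539 and 1367) did not follow.

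AP-1 and immediate early genes went in both directions, with 2 of 24 lower and 2 higher. JUN, an AP-1 subunit, read 3303 in shGFP normoxia, 10620.4 in shGFP hypoxia and 30758 in shNDRG3 hypoxia, and its partner FOS read 343, 984 and 2105. FOSL1 and ZFP36, which codes for a destabiliser of cytokine mRNA, were the lower pair, and ZFP36 read 543, 833 and 364. For both JUN and FOS the shGFP normoxia array was the lowest and the shNDRG3 array the highest.

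Stress and metal response genes held several lower members. Of 11 metallothioneins, small proteins that bind zinc and copper, 4 were lower (36.4%) and none higher, with a median of -0.28. MT2A read 4903, 16819 and 2638 in shGFP normoxia, shGFP hypoxia and shNDRG3 hypoxia, MT1X read 2718, 18985 and 3566, and MT1A read 3823, 14458 and 3296. MT1F was level at 1591 and 1822. These genes are near-identical copies, so probes may read more than one of them and the 4 are not independent. The same holds for ferritin heavy chain, since FTH1 (3855, 8219 and 3038) was lower together with 5 processed copies (FTH1P2, FTH1P3, FTH1P8, FTH1P11 and FTH1P12, named after their values were seen), while FTL, the light chain, was level at 45290.3 and 42093. It also holds for GAGE, cancer-testis antigens of the X chromosome, where GAGE4, GAGE5, GAGE12I and GAGE6 were the 4 lower genes of the 32 counted and GAGE4 read 4403, 3999.8 and 281. GAGE12F (-1.78), filed under an older name and so not counted in the list, was lower too, as was CT83 (-1.49), both named after their values were seen.

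Of 26 NRF2-linked genes, 4 were lower (15.4%) and 1 higher. AKR1C3, a steroid and prostaglandin reductase, read 10434, 3352 and 348 in shGFP normoxia, shGFP hypoxia and shNDRG3 hypoxia, ABCC3, an export pump, differed by -1.72, and NQO1, a quinone reductase, stood at 1136 in shGFP and 551 in shNDRG3. GLO1, glyoxalase 1, was the higher member, at 13316, 13035 and 30275, with differences of 0.94 at 6 h and 1.21 at 12 h. Of 29 interferon-stimulated genes, 5 were lower (17.2%) and none higher, with a median of -0.22. IFITM3, which blocks virus entry, read 4327, 4525 and 320.0, and IFITM2 read 6393, 6305 and 1544. IFITM1 was level, at 2006 and 2005, and none of 17 genes of MHC class I presentation was 2-fold apart. ISG20, BST2 and IRF1 were the remaining lower members, with -1.49, -1.42 and -1.09. Among 31 genes that answer amino acid shortage or protein misfolding, CEBPB, a transcription factor of inflammation, was lower alone (8006, 15566 and 6019), while ASNS (12375 and 13101) and XBP1 (15222 and 16131) were level. HSPA8, a constitutive heat shock protein, was the lower gene of 19 listed chaperones (5.26%, against 1.64% of all genes), with 21747, 4301 and 1749. Outside that list, the chaperone genes DNAJA4 (-1.18) and HSPA4L (1.00) were lower and higher in that order, both picked after their values were seen.

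The lists of growth and housekeeping genes held few members that were apart. Over all genes 1.64% were lower and 0.43% higher, and at such shares lists of this size hold few or none. No gene was 2-fold apart among 47 of DNA replication and mitosis (median 0.15), 30 of the TCA cycle (0.19), 31 of sterol and fatty acid synthesis (0.13), 32 mitochondrial ribosomal proteins (-0.01), 28 ribosome biogenesis factors (0.10), 22 aminoacyl-tRNA synthetases and amino acid transporters (-0.12) and 35 Wnt and Notch genes (0.06). TYMS, thymidylate synthase, read 10871 in shGFP and 9662 in shNDRG3, and RRM1, a ribonucleotide reductase subunit, 19045 and 22347. Some related genes outside these lists were apart, picked after their values were seen. The replication gene PRIM2 (1.05) and the mitosis gene HMMR (1.10) were higher, and the amino acid transporter SLC38A5 (-1.07) was lower. Of 23 G1 cyclins and inhibitors, CDKN1C (p57, a CDK inhibitor) was lower, at 819, 890.0 and 305, and GADD45A (a growth arrest gene) higher, at 1265, 2959.8 and 6057. Of 30 BCL2 family and death receptor genes, BIRC3 and BIK were lower (-1.15 and -1.04) and none was higher. Of 38 respiratory chain and ATP synthase genes, ATP5MC1 alone was apart.

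**Figure D5:**
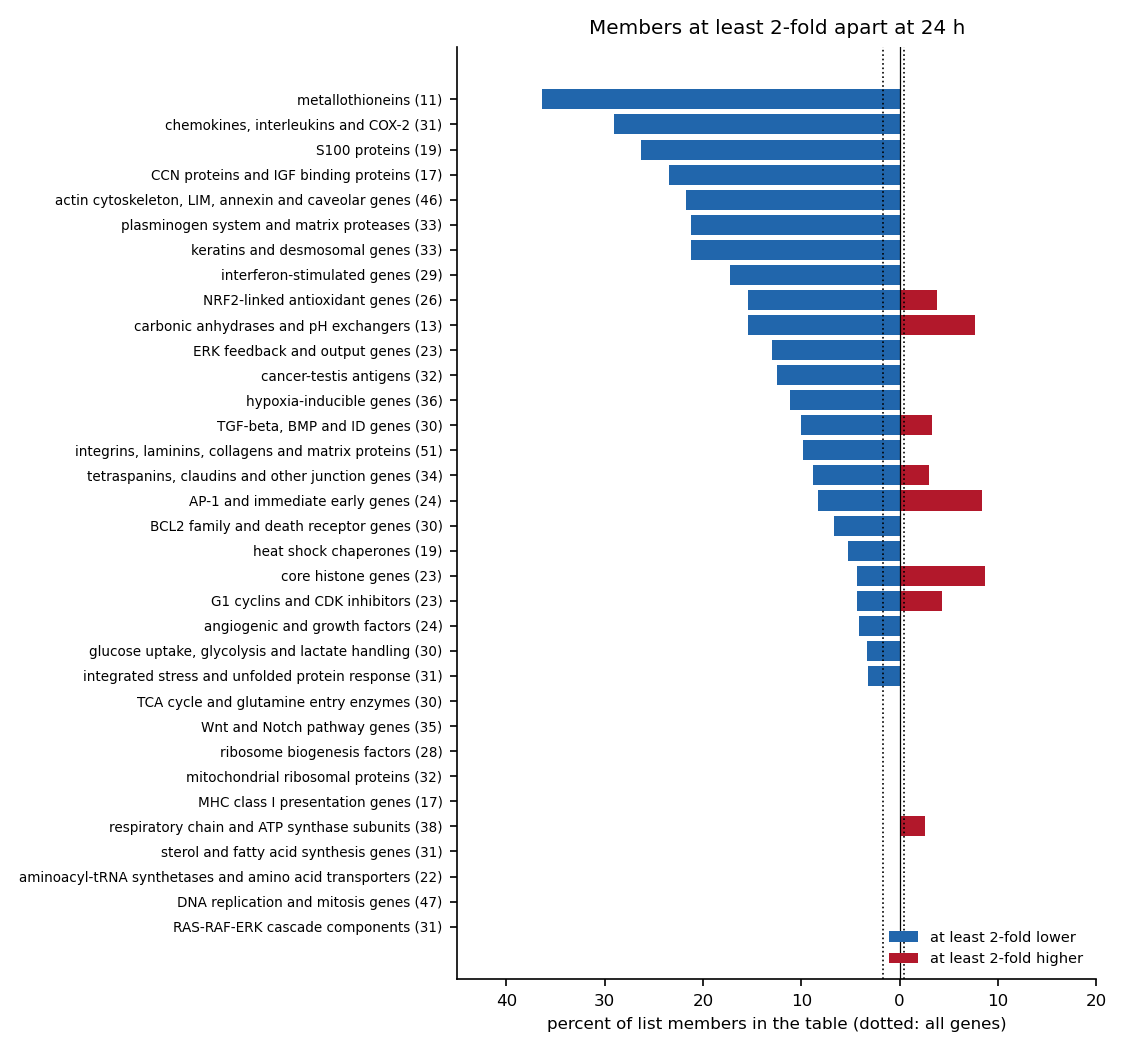
Share of the genes of each list (horizontal, percent; number of members in the table in brackets) at least 2-fold lower (blue, to the left) or higher (red, to the right) in shNDRG3 at 24 h, with dotted lines at 1.64% and 0.43%, the shares over all genes. Metallothioneins reach 36.4%, chemokines, interleukins and COX-2 29.0% and S100 proteins 26.3%, and glycolysis 3.33%.

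The 78 higher genes had a member in 9 of the 40 lists and the 298 lower genes, the larger group, in 27. Of the 78, 11 were in a list, against 86 of the 298 and 1000 of all 18153 genes. The median intensity of the 78 was 656 in shGFP normoxia, 564 in shGFP hypoxia and 1286 in shNDRG3 hypoxia. PPP1R14C, an inhibitor of protein phosphatase 1, read 256, 259 and 1884, the highest difference of all at 2.72. At 6 h and 12 h it differed by 0.39 and 0.90, and in shHIF1A at 12 h by 1.98. STK39, a kinase that controls ion cotransporters, read 827, 555 and 2815, and CKB, the brain-type creatine kinase, read 4314, 2909 and 12021. Both shGFP arrays were alike for PPP1R14C, and the shNDRG3 array was the highest for all these genes.

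TXNDC12, a thioredoxin-like protein of the endoplasmic reticulum, read 2996, 2593 and 11083 in shGFP normoxia, shGFP hypoxia and shNDRG3 hypoxia, and TMED5, a cargo receptor of the same secretory route, read 1547, 1458 and 5525. H4C14, a histone H4 gene with near-identical copies, read 851, 827 and 4106, and H2BC21, a histone H2B gene, read 348, 431 and 1125, while among 23 core histone genes H4C8 was lower (-1.03). FGF9, a growth factor, read 305, 593 and 2167, and PKIA, an inhibitor of protein kinase A, read 576, 853 and 3121. ATP5MC1, a ring subunit of ATP synthase, read 2716, 985 and 3405 and was also higher at 6 h (1.33) and 12 h (1.85). Of the 78 higher genes, only ATP5MC1 was also at least 2-fold higher at 6 h, and only ATP5MC1 and GLO1 were so at 12 h.

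Some transcription factors were among the higher genes, and others were among the lower ones, such as CEBPB (-1.37) and FOSL1 (-1.90). They were not counted in either group. KLF9 read 2686, 1988 and 5859 in shGFP normoxia, shGFP hypoxia and shNDRG3 hypoxia, SOX4 read 804, 851 and 2181, and HOXA13, a factor of limb and tail patterning, read 649, 620.4 and 1669.9. For each of these the shNDRG3 array was the highest of the 3. As log2 differences, the neurofilament gene NEFL (1.53), the RNA-binding protein MEX3B (1.45), the thioesterase ACOT7 (1.33) and the insulin receptor substrate IRS4 (1.32) were also among the 20 highest, as was the G protein subunit GNG4, which read 378, 282 and 852. Neuronal markers, of which none of 6 was 2-fold apart, summed to 2179, 2375 and 3752 on the 3 arrays in the same order, and their part in these values was not tested. Among hepatocyte markers GPC3, a glypican of liver tumours, was higher at 612, 387 and 843 and VTN, vitronectin, lower at 346, 367 and 151.

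Some lower genes lay beside each other in the genome. Of 283 lower genes placed on chromosomes by RefSeq, 26 had another lower gene as a direct neighbour (9.19%), while 3.22% of all placed genes had a lower neighbour, a difference that was not tested. The pairs included KRT16 with KRT17, KRT80 with KRT7, CA9 with TPM2, and the metallothioneins, and near-identical neighbours can share probe signal. Of the 78 higher genes, 4 had a higher neighbour (5.13% against 0.9%), namely HOXA11 with HOXA13 and GPC3 with GPC4.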

How the data were processed

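Gene expression was measured on Illumina arrays in 9 groups of 1 array, grouped by sample title. Per the labels' protocols, total RNA was purified on columns and 200 ng was amplified. The authors deposited linear intensity values, per probe and averaged per gene. The sources used here name no array software and no normalization. Sorted probe values of the second platform (48803 probes) differed by at most 0.004 in log2, which points to quantile normalization of these deposited intensity values before deposit. With a lowest probe value of 104.7 the background is still in them, which shrinks the differences of dim genes.

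Differences were taken on log2(intensity + 32) without further normalization (Python 3.11.15, pandas 2.3.3, numpy 2.4.6). Precision is limited by the number of arrays, 1 per group, so no test was run and no paired fit exists. The counting step was tested on simulated data. Gene names were updated through RefSeq (GRCh38.p14): 15058 were current, 2282 were renamed and 813 were kept as filed. Of 18153 genes, 11960 equalled 1 probe of the second platform. A total of 40 gene lists, some sharing genes and so not all independent, covered 1000 different genes, leaving out 4 names that the values hold under another symbol. Named genes are NDRG1 to NDRG4, HIF1A, EPAS1, ARNT, the 25 lowest and 20 highest with a current RefSeq symbol that is not provisional, and from each list up to 12 members at least 2-fold apart and up to 4 of the most intense members under 1.3-fold apart. Some genes that the rule names are not reported here. The members and lists were chosen with earlier results of these data known. Alternatives covered the filter, pseudocount, background, centring, probes and threshold.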

Additional observations from a re-analysis of the deposited data

Results flagged for a closer look

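The genes EPAS1, ITGA5 and SERPINB2 were lower in shNDRG3 at 24 h and at least 1.5-fold higher in shNDRG3 at both 6 h and 12 h, which is what drew attention to them. The difference between the times was not tested, and time and platform cannot be told apart. EPAS1, the HIF-2 alpha subunit, had differences of 0.81 and 0.74 at 6 h and 12 h, and of -1.22 at 24 h. On the first platform its intensity was 3757 in shGFP and 6628 in shNDRG3 at 6 h, and 4318 and 7240.4 at 12 h, while at 24 h it was 1985 and 831. ITGA5, the fibronectin receptor subunit, differed by 0.64, 0.60 and -1.89, with 7977 in shGFP and 12132 in shNDRG3 at 12 h and 3170.2 and 833 at 24 h. SERPINB2, plasminogen activator inhibitor 2, differed by 0.65, 1.01 and -2.16, with 789.7 in shGFP and 1618 in shNDRG3 at 12 h and 818 and 159 at 24 h.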

How the results depend on the processing

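Subtracting background, which by construction widens the differences of dim genes, gave 1023 lower and 778 higher genes in place of 298 and 78, moved the share of lower genes among those apart from 79.3% to 56.8%, and turned the NDRG3 difference at 24 h from -2.72 into -4.27. Over all settings other than the thresholds, 401 single-gene values were computed for the named genes, and 21 moved by over 1.5-fold. All 21 came from background subtraction, where 52 genes were recomputed, so printed differences of dim genes depend on it as well. A 1.5-fold threshold gave 803 lower and 640 higher genes, and a 3-fold threshold 106 and 9. A stricter threshold calls fewer genes by construction. The share of lower genes among those apart was 55.6% at 1.5-fold, 79.3% at 2-fold and 92.2% at 3-fold, so the excess of lower genes depends on the threshold. Keeping only genes equal to 1 probe left 182 lower genes, since fewer genes (7451 past the filter) were compared. The filter, pseudocount and centring settings and a quantile normalization over genes gave 241 to 323 lower and 52 to 92 higher genes, and leaving out GAGE, metallothionein and ferritin heavy chain names, a setting chosen after seeing the data, left 282 lower genes. Of the 52 genes recomputed, the 47 at least 2-fold apart kept their sign and stayed 2-fold apart in all settings that held them. A change of sign was looked for in these 47 genes only, not in the list medians or the other recomputed genes. Other genes named in the text were not recomputed. Of 880 list counts 117 moved, and of 320 list medians 1 moved. Leaving out a replicate was not possible, as each group has 1 array. No paired analysis was possible because each group holds 1 array and no test was run. Signal over background limits dim genes, of which 71 of the 298 lower ones lay under the filter in shNDRG3.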

Other observations

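Some complement genes were among the 298 lower genes. They were picked because they were lower, no list held them, and complement genes that were not lower were not counted. CFB, complement factor B, read 744 in shGFP normoxia, 1479 in shGFP hypoxia and 195 in shNDRG3 hypoxia. C4BPB, the beta chain of the C4b-binding protein, read 2661, 1253 and 196. CFD, C1RL and CD55 were lower by smaller amounts, at -1.07, -1.13 and -1.09. At 12 h the differences of CFB and C4BPB were 0.18 and -0.49.

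Of the 55 lower genes that stood apart on the shGFP hypoxia array alone, the following were picked after their values were seen. CDKN2AIPNL read 2575 in shGFP normoxia, 8613 in shGFP hypoxia and 2674 in shNDRG3 hypoxia, XRCC2 read 478, 1754 and 583, and ALPP, placental alkaline phosphatase, read 1427, 3976 and 1405.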
